A study of Mus musculus with 8 samples.

Results

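The tubulin genes described here encode the alpha- and beta-tubulin chains that polymerise into microtubules. They are Tuba1a, Tuba1b, Tuba1c and Tuba4a for the alpha chain and Tubb2a, Tubb2b, Tubb4b, Tubb5 and Tubb6 for the beta chain. They were taken by gene symbol, and these 9 genes are a part of the 27453 genes listed for 8 mouse livers. The family was picked with results of the same libraries known, so the differences between O-titled and Y-titled livers within each sex are given as a description, with no test. The 8 livers came from C57BL/6JN mice, 4 with titles beginning with O and 4 with titles beginning with Y, and replicates 1 and 2 of each set were males and replicates 3 and 4 females. Under age, the labels of O-titled animals read 12 weeks and those of Y-titled animals 80 weeks, yet the treatment field of all 8 names the old animals as the treated group. The labels therefore do not settle which set is the old one, and the sets are called by title. No treatment, transgene or deletion is recorded for either set, and both share strain, tissue and library protocol. Each library is direct RNA sequencing, in which a nanopore reads native polyadenylated RNA molecules without making cDNA copies, so a read stands for 1 molecule. The header field of the files names 8 different animals.

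Alpha- and beta-tubulin pair into a dimer, and dimers add to and leave the ends of microtubules. In hepatocytes, microtubules carry secretory vesicles with plasma proteins and lipoproteins towards the blood and move transporters to the bile canaliculus. The members are isotypes, separate genes for nearly the same protein, and most of what tells their proteins apart lies in the acidic tail at the carboxyl end, where enzymes also add and remove residues. Cells also tune tubulin output through the mRNA. When free dimers are in excess, the factor TTC5 recognises the first residues of a tubulin chain as it leaves the ribosome and tubulin mRNAs are degraded.

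The start of the coding sequence is shown because it encodes those first residues. It was taken from the listed GENCODE transcripts on mm10 and covers the first 12 bases, with the fourth codon in capitals. That codon separates the alpha from the beta members.
Tuba1b: atgcgtgagTGC
Tuba1a: atgcgtgagTGC
Tuba1c: atgcgtgagTGC
Tuba4a: atgcgcgagTGC
Tubb2a: atgcgcgagATC
Tubb2b: atgcgagagATC
Tubb4b: atgagggagATC
Tubb5: atgagggaaATC

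The ends of the beta coding sequences are shown because they hold the isotype tails. Each line gives the last 45 coding bases before the stop codon. Capitals mark bases that differ from Tubb2a, position by position and with no gaps.
Tubb2a: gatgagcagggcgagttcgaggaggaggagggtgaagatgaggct
Tubb2b: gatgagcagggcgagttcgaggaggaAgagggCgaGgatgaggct
Tubb4b: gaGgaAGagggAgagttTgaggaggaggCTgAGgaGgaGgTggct
Tubb5: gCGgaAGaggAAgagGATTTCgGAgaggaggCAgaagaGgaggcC
Tubb2b differed from Tubb2a at 3 of these positions, Tubb4b at 12 and Tubb5 at 18.

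Over the whole coding sequence, pairs of the same chain among these 8 genes were between 82.2% and 98.3% identical. The closest were Tuba1a with Tuba1b (98.3%), Tuba1b with Tuba1c (97.9%) and Tuba1a with Tuba1c (97.1%), followed by Tubb2a with Tubb2b (96.5%). Identity between the chains was 53.7% to 55.9%. The 3′ untranslated regions were distinct. No stretch of 25 bases in the 3′ untranslated region of a member occurred in the transcript of another, whereas 91.6% of such stretches in the coding sequence of Tuba1b and 64.2% in that of Tubb2a did. A direct RNA read begins at the 3′ end, so it covers the distinct part first. Reads of Tubb2a were 1355 bases long on average, or 84.2% of the listed transcript, those of Tubb4b 1305 bases (81.7%) and those of Tuba4a 1288 bases (45.4%). How the authors assigned reads that match several members was not given in the sources used here, so the split between Tuba1a, Tuba1b and Tuba1c and between Tubb2a and Tubb2b is uncertain to that extent.

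On mm10 the members lie in several places. Tuba1b (ENSMUSG00000023004) is on chromosome 15 from 98931425 to 98934565, Tuba1a (ENSMUSG00000072235) follows from 98949837 to 98953703, and Tuba1c (ENSMUSG00000043091) from 99029891 to 99038110. Tuba4a (ENSMUSG00000026202) is on chromosome 1 from 75214228 to 75219865. Tubb2a (ENSMUSG00000058672) and Tubb2b (ENSMUSG00000045136) are neighbours on chromosome 13, from 34074274 to 34078007 and from 34126748 to 34130466. Tubb4b (ENSMUSG00000036752) is on chromosome 2 from 25222160 to 25224702 and Tubb5 (ENSMUSG00000001525) on chromosome 17 from 35833921 to 35838306. Each member had 1 transcript in the tables, with 4 exons, so transcript usage within a gene could not be compared.

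The upstream sequences of Tubb2a and Tubb4b, the beta members with the widest separation in females, are shown with the matches of common promoter letters. RefSeq promoters on GRCm38.p6 were found for 7 of the 9 members, not for Tubb2b and Tubb6. Capitals mark the CCAAT box (CCAAT), the GC box (GGGCGG) and the TATA box (TATAAA), on either strand, within the 250 bases before the start. The Tubb2a stretch is chr13:34078009-34078258 and the Tubb4b stretch chr2:25224703-25224952, both read on the minus strand.
Tubb2a: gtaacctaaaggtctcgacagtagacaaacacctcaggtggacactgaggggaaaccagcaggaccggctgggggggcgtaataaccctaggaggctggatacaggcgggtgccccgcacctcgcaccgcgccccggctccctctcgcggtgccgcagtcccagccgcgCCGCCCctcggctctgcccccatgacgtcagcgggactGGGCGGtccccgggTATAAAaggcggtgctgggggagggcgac
Tubb4b: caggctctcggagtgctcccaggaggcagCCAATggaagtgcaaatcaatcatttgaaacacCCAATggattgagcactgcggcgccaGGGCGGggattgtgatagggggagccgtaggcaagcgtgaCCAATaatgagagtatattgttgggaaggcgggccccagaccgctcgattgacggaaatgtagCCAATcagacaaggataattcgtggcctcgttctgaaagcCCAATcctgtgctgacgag
Tubb2a held 1 TATAAA and 2 GGGCGG matches and no CCAAT, and its bases were 68.4% G or C. Tubb4b held 5 CCAAT matches and 1 GGGCGG and no TATAAA, at 54.4% G or C. Among the 7 members CCAAT was found in 4, GGGCGG in 5 and TATAAA in 1, while 33.8%, 32.7% and 12.4% of 32851 promoters of this length held them. These matches are letters and do not show that a factor binds.

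Libraries held 545171 to 2593200 mapped reads, and 302 to 1465 of them came from the 9 genes. Levels are counts-per-million (CPM), with library sizes taken over tested genes and adjusted by edgeR's TMM method, and the floor of detection was set at 3 reads, or 1.16 to 5.50 CPM of mapped reads. Counting intervals and floors cover counting error only. Of the 9 members, 7 had enough reads to enter the fit over 6759 genes, while Tubb6 and Tubb2b did not. Hepatocyte genes dominated every library. Summed over Alb, Apoa1, Ttr, Serpina1c and Cyp2e1 they stood at 71384 to 118918 CPM, and all 5 were detected, which fits the labelled tissue. Since these are whole livers, fewer cells of a type and less RNA per cell cannot be told apart.

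Per kilobase of transcript, which places long transcripts lower, 5 members had similar values and the others were well below. Mean levels over the 8 libraries were 64.8 CPM per kb for Tubb4b, 54.2 for Tuba1c, 53.5 for Tuba1b, 51.7 for Tubb2a and 44.9 for Tuba4a, and the ranges over libraries of these 5 overlapped. Tubb2a had the widest range, from 12.9 to 111 CPM per kb. Tubb5, a widely expressed isotype, followed at 18.7 CPM per kb (10.8 to 25.4), and of the ranges of those 5 its own overlapped those of Tubb2a and Tuba4a only. Tuba1a, best known from developing neurons, was at 7.41 CPM per kb, Tubb6 at 3.78 and Tubb2b at 0.212. Since a read stands for 1 molecule, levels per molecule are the CPM with no division by length. Counted so, Tuba4a came first at a mean of 127 CPM, then Tuba1c at 107 and Tubb4b at 104. Tuba1b followed at 93.2, Tubb2a at 83.3 and Tubb5 at 49.5 CPM. By this measure the range of Tubb5 (28.7 to 67.3 CPM) overlapped those of Tubb2a and Tubb4b and not that of Tuba4a.

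**Figure D1:**
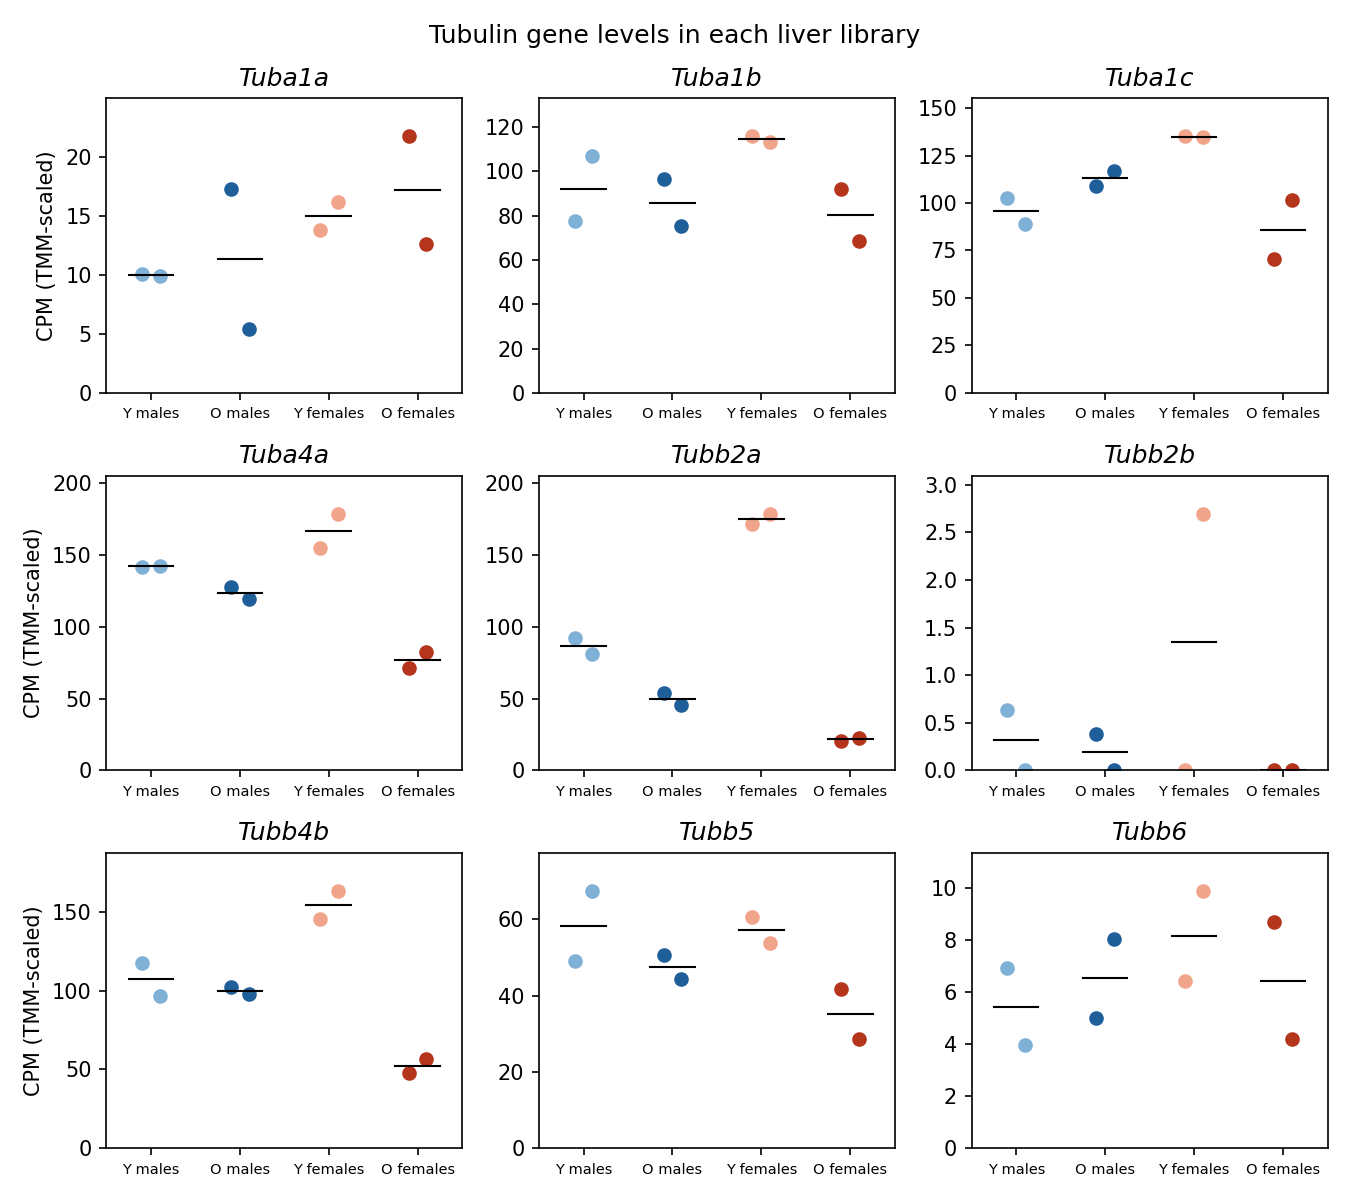
Level of each tubulin gene in each library, in TMM-scaled CPM on the vertical axis from 0. Points are libraries, grouped by title and sex on the horizontal axis, and black lines are means of the 2 libraries. Tubb2a, Tubb4b and Tuba4a are highest in Y-titled females and lowest in O-titled females.

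Tubb2a, a beta isotype abundant in brain and present in many tissues, showed the widest separation of the members. In females it stood at 20.8 and 22.4 CPM in the O-titled libraries and at 172 and 179 CPM in the Y-titled ones. In males it stood at 53.8 and 45.7 CPM in O-titled and at 91.9 and 81.2 CPM in Y-titled libraries. All 4 O-titled livers lay below all 4 Y-titled livers, and within each title set the females lay outside the males, above them in the Y-titled and below them in the O-titled set. The group means of females were 21.6 ± 1.11 and 175 ± 4.83 CPM (SD, n = 2 each), an 8.10-fold higher level in Y-titled females, against 1.74-fold in males. The fitted log2 fold of O-titled over Y-titled was -3.01 (SE 0.201) in females and -0.79 (SE 0.190) in males. Ranked from the lowest female log2 fold, Tubb2a held place 10 among 6759 genes, and place 170 by the male one. These places describe the values that drew attention to the family.

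Tubb4b, a beta isotype found in most tissues and in cilia, followed the same order in females only. Female values were 47.7 and 56.7 CPM in O-titled and 146 and 163 CPM in Y-titled libraries, with no overlap. Male values were 102 and 98.1 CPM in O-titled and 118 and 97.0 CPM in Y-titled libraries, which overlapped. The log2 fold was -1.56 (SE 0.182) in females and -0.12 (SE 0.178) in males, and the male value was 0.06 without Y-titled replicate 1. Tubb5 stood at 41.7 and 28.7 CPM in O-titled and 60.6 and 53.9 CPM in Y-titled females, again apart. In males the O-titled libraries had 50.7 and 44.3 CPM and the Y-titled ones 49.1 and 67.3 CPM, which overlapped. Its log2 folds were -0.72 (SE 0.240) in females and -0.19 (SE 0.235) in males. These moved to -0.43 in females without O-titled replicate 4 and, in males, to -0.47 when Y-titled replicate 1 was left out. Leaving out Y-titled replicate 2 instead gave -0.0165 in males.

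The remaining beta members were too low to compare. Tubb6, a broadly expressed minor isotype, had 2 to 13 reads per library, between 3.96 and 9.87 CPM, with overlap in both sexes. Tubb2b, the near-copy of Tubb2a that neurons use, had 5 reads in all, namely 1 in O-titled replicate 1, 1 in Y-titled replicate 1 and 3 in Y-titled replicate 4. The other 5 libraries had 0 reads, which allows up to 2.19 to 5.50 CPM of mapped reads depending on the library. Adding its reads to those of Tubb2a gave log2 folds of -3.02 in females and -0.79 in males.

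Among the alpha members Tuba4a was the one with separated values in both sexes and the same order. Tuba4a is the alpha isotype whose gene does not encode the final tyrosine that enzymes elsewhere remove and restore. It stood at 71.2 and 82.6 CPM in O-titled and 155 and 179 CPM in Y-titled females, and at 128 and 119.6 CPM in O-titled and 142 and 143 CPM in Y-titled males. The log2 fold was -1.11 (SE 0.168) in females and -0.19 (SE 0.166) in males. As with Tubb2a, no O-titled liver reached the level of any Y-titled liver.

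Tuba1b and Tuba1c, the alpha isotypes of most dividing and non-dividing cells, were apart in females. In males Tuba1c took the opposite order and Tuba1b overlapped. Tuba1c stood at 70.3 and 102 CPM in O-titled and at 135 CPM in each of the Y-titled females. In males the order was turned, with 109 and 117 CPM in O-titled against 103 and 89.1 CPM in Y-titled libraries. Its log2 folds were -0.64 (SE 0.185) in females and 0.21 (SE 0.190) in males. The female value was -0.40 without O-titled replicate 3. Tuba1b stood at 92.0 and 68.6 CPM in O-titled and 116 and 113 CPM in Y-titled females. Its male values were 96.5 and 75.2 CPM in O-titled and 77.4 and 107 CPM in Y-titled libraries, which overlapped. The log2 folds were -0.52 (SE 0.201) in females and -0.01 (SE 0.210) in males, and the male value ran from -0.27 to 0.18 over the alternatives, so it had no steady sign. The female value was -0.29 at the smallest.

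Tuba1a did not follow the other members. It stood at 21.7 and 12.6 CPM in O-titled and 13.8 and 16.2 CPM in Y-titled females, and at 17.3 and 5.37 CPM in O-titled and 10.1 and 9.90 CPM in Y-titled males. The values overlapped in both sexes, and O-titled replicate 2 rests on 4 reads. The log2 folds were 0.17 (SE 0.415) in females and 0.47 (SE 0.459) in males, and the male value turned to -0.88 without O-titled replicate 1. The female value ran from -0.23 to 0.56 when single libraries were left out. Summing the reads of Tuba1a, Tuba1b and Tuba1c gave log2 folds of -0.53 (SE 0.146) in females and 0.10 (SE 0.149) in males.

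**Figure D2:**
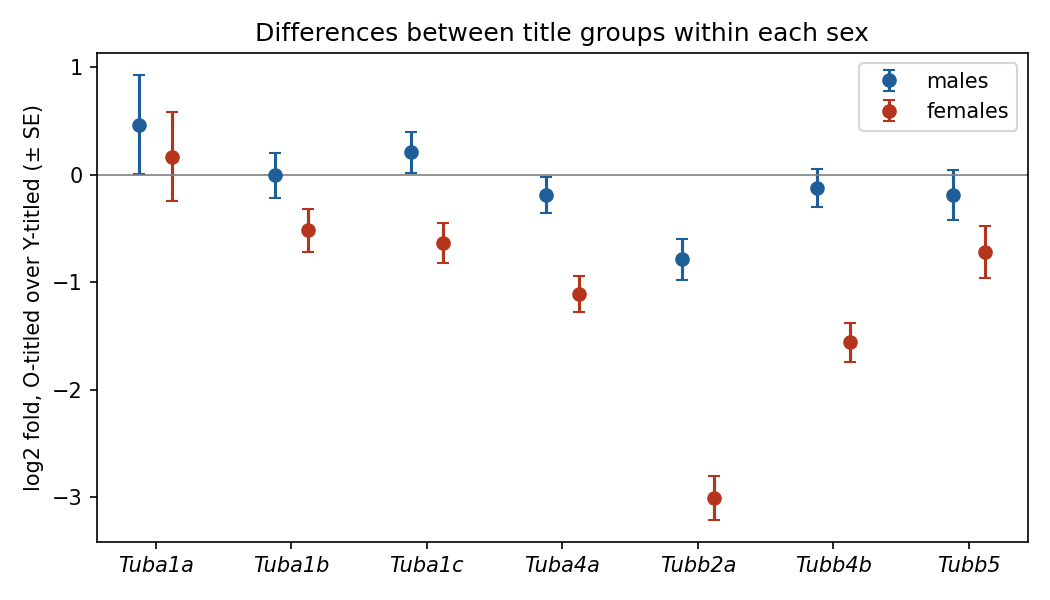
Log2 fold of O-titled over Y-titled livers for the 7 tested tubulin genes, fitted with edgeR, with bars of 1 standard error, for males and females (2 libraries against 2 in each). The female value lies below the male value for all 7 genes, by 2.22 for Tubb2a, the widest gap, and by 0.30 for Tuba1a.

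Counted over the members, 6 of 9 had both O-titled females below both Y-titled females, none the reverse, and 3 overlapped. Among all 6759 tested genes 23.9% had lower and 22.3% higher O-titled values in females without overlap. In males 2 members (Tubb2a and Tuba4a) were lower without overlap, 1 (Tuba1c) was higher and 6 overlapped, beside 20.4% lower and 20.3% higher among all tested genes. Over both sexes at once, Tubb2a and Tuba4a were the 2 members with all O-titled values below all Y-titled ones, which 4.62% of tested genes also showed, while 4.10% showed the reverse. With each sex taken alone, 8.18% of tested genes were lower without overlap in both, as these 2 members were, and 3.15% were higher in males and lower in females, as Tuba1c was. Nothing is read from these counts, because the same difference led to the choice of the family. The fit itself called 5.47% of genes within females and 1.26% within males at an adjusted p of 0.05.

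The summed level of the 9 genes was 374 and 377 CPM in O-titled and 805 and 851 CPM in Y-titled females, a change of -54.6% from the Y-titled to the O-titled mean. In males it was 563 and 513 CPM against 598 and 598 CPM, a change of -9.99%. Female values did not overlap. The male means were 538 ± 35.3 and 598 ± 0.0531 CPM (SD, n = 2 each), and whether male values overlapped depended on the scaling. As CPM of all mapped reads, O-titled males stood at 565 and 482 and Y-titled males at 552 and 554, which overlapped. Without Tubb2a the female sum was still lower, at 354 ± 1.14 against 653 ± 27.8 CPM (SD, n = 2 each), while the male sums overlapped.

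The alpha and beta sums did not move in step. Beta reads stood at 119 and 112 CPM in O-titled and 385 and 408 CPM in Y-titled females, and alpha reads at 255 and 265 CPM against 420 and 443 CPM. There were thus 2.15 and 2.37 alpha reads per beta read in O-titled females and 1.09 and 1.08 in Y-titled females. In males the ratios were 1.65 and 1.62 in O-titled and 1.25 and 1.40 in Y-titled libraries. Both sexes therefore had more alpha reads per beta read in the O-titled set, with no overlap.

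Tubb2a also held a smaller share of the beta reads in O-titled livers. It made up 17.5% (95% Wilson interval 12.1 to 24.7%) and 20.0% (14.5 to 26.9%) of beta reads in O-titled females and 44.6% (39.9 to 49.4%) and 43.7% (39.2 to 48.3%) in Y-titled females. In males the shares were 25.4% (21.9 to 29.2%) and 23.3% (17.2 to 30.8%) in O-titled and 34.5% (30.1 to 39.2%) and 32.5% (25.0 to 41.1%) in Y-titled libraries. The intervals stood apart in females, and in males those of the replicates 1 stood apart while every pair with a shallow replicate 2 overlapped. These intervals cover counting error within a library and not the spread between animals. They restate counts that drew attention to the family, so nothing is read from whether they overlap. Tubb5 held 35.0% and 25.6% of beta reads in O-titled females against 15.8% and 13.2% in Y-titled females, and Tubb4b 40.1% and 50.6% against 37.9% and 40.0%.

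**Figure D3:**
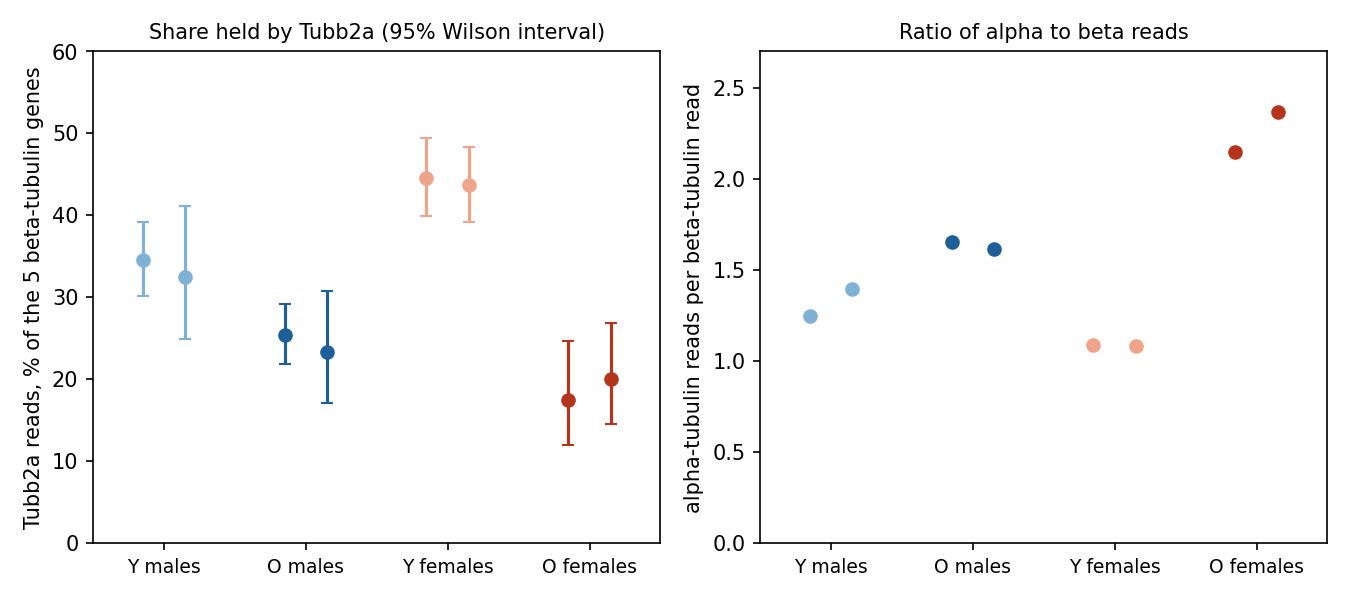
Left, reads of Tubb2a as a percentage of the reads of the 5 beta genes in each library, with 95% Wilson intervals; right, alpha reads per beta read. Points are libraries, grouped by title and sex. Shares run from 17.5% in an O-titled female to 44.6% in a Y-titled female, and the ratio from 1.08 to 2.37 in the opposite order.

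The comparison of females with males over both title sets was not used in choosing the family and was tested. edgeR's quasi-likelihood test called 0 of 7 tested members, beside 2.96% of all tested genes. No member had an unadjusted p under 0.05, and DESeq2 also called 0. The log2 fold of females over males was 0.10 (SE 0.465, edgeR adjusted p = 0.972) for Tubb2a and -0.18 (SE 0.277, adjusted p = 0.887) for Tubb4b. It was -0.22 for Tuba4a (adjusted p = 0.699) and 0.40 for Tuba1a (adjusted p = 0.705). For Tubb2a the 95% interval ran from -0.81 to 1.01. This fit of title and sex has no term for a title difference that varies by sex. Such variation counts as spread, so the interval is wider than the spread between animals alone would make it. The standard errors within females and within males, from the fit of 4 groups, were 0.201 and 0.190 for Tubb2a and 0.182 and 0.178 for Tubb4b. The missing calls of these 2 genes therefore cannot decide whether the sexes differed. The average over both title sets hides the order noted above, since for Tubb2a the sexes took opposite orders in the 2 sets.

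Genes that fold, modify, nucleate, bind or move along microtubules were looked at for the contrast of O-titled with Y-titled livers. Their lists were drawn up for the pathway, with earlier results of these data known. Of 132 genes, 64 were tested, and edgeR called 0 of them between O-titled and Y-titled livers, beside 4.01% of all tested genes. Of these 64 genes 2 had an unadjusted edgeR p under 0.05, namely Mapre2 and Mark3, beside 1098 of all 6759 genes, and DESeq2 called 0. Within females and within males edgeR also called 0 of 64, beside 5.47% and 1.26% of all tested genes, and DESeq2 called 0. An unadjusted edgeR p under 0.05 was reached by 6 and 1 of the 64, beside 1112 and 639 of all 6759 genes. With so low a share called among all genes within males, 0 of 64 says little about these genes. The median log2 fold of the 64 genes was 0.01 over both sexes, 0.03 in females and -0.05 in males, and those of all tested genes were between -0.01 and 0.00. The lowest female value was -0.73, that of the phosducin-like chaperone Pdcl3.

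Chaperones come first in the making of tubulin. The chaperonin ring CCT folds both chains, prefoldin hands them over, and the cofactors Tbca to Tbce join them into dimers. Of 22 listed genes 20 were tested, 0 passed in either direction, and the summed level ranged from 1094 to 1245 CPM over all 8 libraries. The most abundant were Cct5 at 128 ± 17.5 against 130 ± 11.8 CPM (O-titled against Y-titled, SD, n = 4 each), the prefoldin subunit Pfdn5 at 116 ± 11.3 against 104 ± 19.1 CPM and Cct8 (edgeR adjusted p = 0.799). The sum in O-titled females, 1152 to 1243 CPM, overlapped that in Y-titled females, 1170 to 1245 CPM.

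Of the tubulin mRNA decay factors Ttc5 had 28 reads in the O-titled and 28 in the Y-titled set, under the count filter. Depths differed, and O-titled minus Y-titled log2(CPM + 0.5) was -0.894 for Ttc5 (exact permutation p = 0.2, adjusted p = 0.5). Female values were 0.868 (1 read) and 6.30 CPM in O-titled and 7.35 and 8.98 CPM in Y-titled libraries. Male values were 6.15 and 2.69 against 4.41 and 5.94 CPM, which overlapped. The other listed decay factor, Cnot11, a subunit of the CCR4-NOT deadenylase complex, was at 9.35 ± 1.74 against 13.6 ± 4.66 CPM (edgeR adjusted p = 0.438). Other tubulins were scarce. The gamma-tubulin gene Tubg1, whose product nucleates microtubules, was at 18.3 ± 8.94 against 19.8 ± 3.18 CPM (adjusted p = 0.758). Tuba8 had 12 reads in all, Tubd1 20 and Tube1 10, Tubb1, Tubb3 and Tubg2 1 each, and Tuba3a, Tuba3b, Tubal3 and Tubb4a 0. Of the gamma-tubulin ring complex 4 of 8 genes were tested, led by Mzt2 (22.6 ± 6.41 against 21.7 ± 4.74 CPM), Mzt1 and Tubgcp6, and 0 passed.

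Tubulin-modifying enzymes were mostly under the filter, with 2 of 21 tested. The deacetylase Sirt2 was at 39.1 ± 3.92 against 30.7 ± 7.37 CPM (edgeR adjusted p = 0.442) and Svbp, the partner of the tyrosine-removing vasohibins, at 13.2 ± 1.38 against 11.6 ± 2.39 CPM (adjusted p = 0.800). Of 31 microtubule-associated proteins 12 were tested and 0 passed. The most abundant were Map7d1 (26.2 ± 3.10 against 24.8 ± 3.71 CPM), the end-binding protein Mapre3 (21.5 ± 4.16 against 24.9 ± 8.71 CPM) and the spectraplakin Macf1 (23.2 ± 5.13 against 20.2 ± 4.03 CPM). Another end-binding gene, Mapre2, had a log2 fold of 0.77 (adjusted p = 0.132, between 0.115 and 0.406 over the alternatives), the smallest adjusted p of the 64.

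The motors that walk on microtubules also did not pass. Of 18 kinesin genes 6 were tested, with Kif1c at 103 ± 25.3 against 104 ± 19.1 CPM, Kif1b at 42.7 ± 1.92 against 49.3 ± 11.1 CPM and the light chain Klc4 at 41.9 ± 1.99 against 36.7 ± 8.83 CPM. Of 19 dynein and dynactin genes 18 were tested, and the light chains Dynll2 (134 ± 24.9 against 148 ± 27.3 CPM) and Dynlrb1 (90.8 ± 4.48 against 107 ± 9.55 CPM) and the dynactin subunit Dctn2 (69.5 ± 11.3 against 74.8 ± 8.57 CPM) led them. Between females and males edgeR and DESeq2 each called 0 of the 64 genes, while edgeR called 2.96% of all tested genes. An unadjusted edgeR p under 0.05 was reached by 3 of the 64 (Tubg1, Mapre2 and Dynll2), beside 834 of all 6759 genes. Among 21 tested actin and intermediate filament genes 1 rose in O-titled livers and 0 fell, beside 4.01% of all tested genes called in either direction. It was Vim, the filament protein of mesenchymal cells (34.3 ± 10.5 against 17.0 ± 3.63 CPM, log2 fold 1.04, edgeR adjusted p = 0.0178). Vim lost its call without O-titled replicate 1 (adjusted p = 0.0951), O-titled replicate 3 (0.0567) or Y-titled replicate 3 (0.0896).

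**Figure D4:**
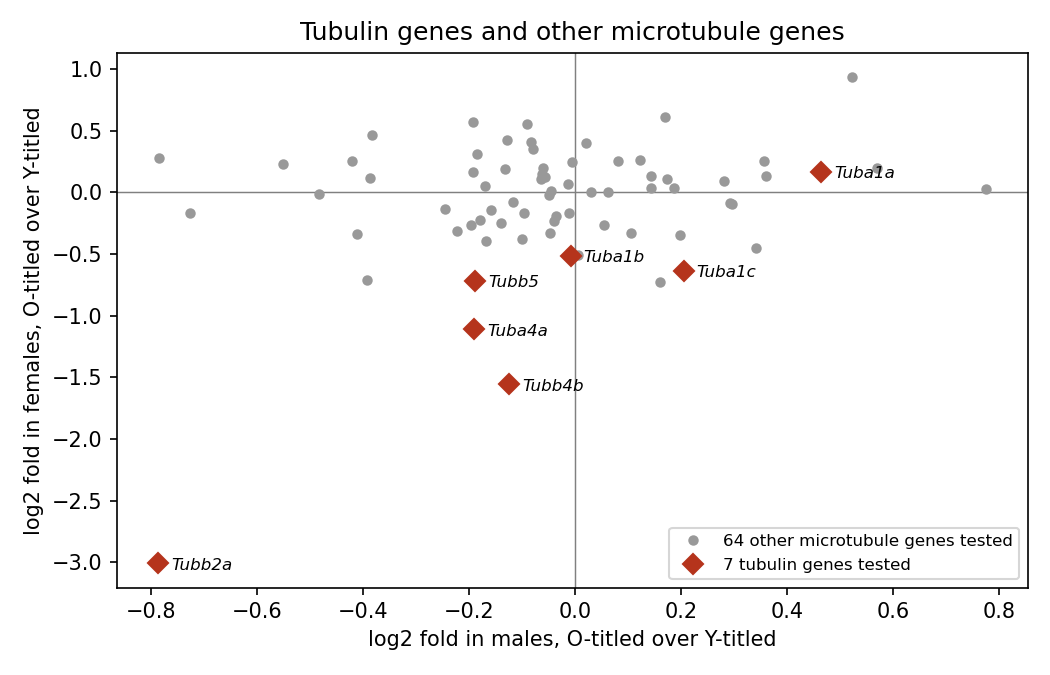
Log2 fold of O-titled over Y-titled livers in males (horizontal) and females (vertical) for the 64 other microtubule genes tested (grey circles) and the 7 tested tubulin genes (red diamonds). Tubb2a lies at -0.79 and -3.01, and the lowest of the other microtubule genes in females at -0.73.

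Markers of other liver cells were summed beside these results. Between O-titled and Y-titled females, the hepatocyte genes stood at 71384 to 85863 against 97249 to 118918 CPM, and the 12 cell cycle genes, all with reads but none tested, at 16.1 to 17.4 against 31.2 to 55.7 CPM. The 12 Kupffer cell and macrophage markers stood at 1166 to 1550 against 804 to 819.5 CPM, and the 6 neutrophil markers at 17.4 to 61.6 against 77.2 to 89.1 CPM. In males the hepatocyte sums were 83160 to 101991 in O-titled and 79536 to 97022 CPM in Y-titled livers, the cell cycle sums 15.4 to 24.2 against 12.0 to 23.8 CPM, and the macrophage sums 575 to 1506 against 685 to 763 CPM, all of which overlapped. Cholangiocyte markers stood at 28.0 to 42.5 against 26.9 to 44.1 CPM in females and 24.2 to 27.3 against 17.8 to 23.9 CPM in males. The 12 endothelial markers stood at 362 to 459 against 412 to 414 CPM in females and 364 to 407 against 305 to 308 CPM in males. The 10 stellate cell markers were at 442 to 445 against 347 to 412 CPM in females and 359 to 412 against 285 to 318 CPM in males. Erythroid markers took opposite orders in the sexes, at 2245 to 2776 against 1701 to 2030.4 CPM in females and 2147 to 2712 against 2872 to 4659 CPM in males. Lymphocyte markers were low, with T and NK cell sums of 11.2 to 17.4 against 5.51 to 10.8 CPM in females and 0 to 8.84 against 5.66 to 7.92 CPM in males. B cell sums were 7.70 to 12.2 against 5.39 to 7.35 CPM in females and 9.40 to 11.5 against 6.92 to 7.92 CPM in males. The B cell sums, from few reads, and the stellate sums were both apart in each sex, with the O-titled set higher. Neutrophil sums in males (9.40 to 43.4 against 11.9 to 14.5 CPM) and platelet sums in both sexes overlapped. The part of these cells in the tubulin values was not tested.

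Single markers passed in a few lists. Beside them, edgeR called 4.01% of all tested genes for title, 5.47% within females, 1.26% within males and 2.96% between the sexes. Single calls in lists this short are therefore not read as changes of a cell type. Of 8 tested stellate cell markers 1 rose in O-titled livers, Dcn (175 ± 13.3 against 117 ± 23.6 CPM, edgeR adjusted p = 0.00956). Of 11 tested endothelial markers 1 also rose, the Fc receptor Fcgr2b (log2 fold 0.62, SE 0.171, edgeR adjusted p = 0.0490). Fcgr2b lost its call in DESeq2 (adjusted p = 0.112) and without each of 6 single libraries (up to 0.204 without Y-titled replicate 1). Between the sexes, the erythroid enzyme Alas2 was lower in females (15.8 ± 5.44 against 102 ± 20.6 CPM, adjusted p = 1.28e-07), as was Serpina1c (6029 ± 1423 against 8842 ± 1044 CPM, adjusted p = 0.00717), which belongs to a family of near-identical genes. Within females, 2 of the 5 hepatocyte genes fell in O-titled livers, Ttr (log2 fold -0.55, adjusted p = 0.0270) and Serpina1c (-0.51, adjusted p = 0.0430). Within males the globin gene Hbb-bt fell (-0.84, adjusted p = 0.0126), while Dcn (0.74, adjusted p = 0.0323) and Fcgr2b (0.97, adjusted p = 0.049) rose. In females the log2 folds of Dcn and Fcgr2b were 0.44 and 0.35 and were not called (edgeR adjusted p = 0.138 and 0.452). B cell, T and NK cell, neutrophil, platelet and cell cycle markers were all under the count filter.

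Genes whose levels over the 8 libraries ran most like the mean of the 7 tested members were ranked by Pearson's r on log2 CPM, as a description. The first 10 had r between 0.941 and 0.980, with every library shared, and the members themselves had r from 0.121 for Tuba1a to 0.960 for Tubb2a. The closest was Nedd4l, a ubiquitin ligase, at 7.81 and 7.70 CPM in O-titled and 27.6 and 32.3 CPM in Y-titled females, and at 16.1 and 12.1 against 18.9 and 19.8 CPM in males. It was followed by Hacd2, which acts in fatty acid elongation, Cyp2c54, one of a family of near-identical cytochrome P450 genes, the Wnt co-receptor Lrp5, the disulfide isomerase Pdia6 and H6pd, a dehydrogenase of the endoplasmic reticulum. Arhgef10l, Fermt2, mt-Nd4l and St5 made up the rest. Pdia6 stood at 168 and 137 CPM in O-titled and 286 and 260.3 CPM in Y-titled females.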

How the data were processed

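Nanopore direct RNA libraries of 8 livers were analysed. Poly(A) RNA was captured on oligo(dT) beads, per the labels' protocols, and an adapter ligated to its 5′ ends. The submitters' processing notes name minimap2 2.24 and mm10, and list DESeq2 without saying what it was used for. For the counter, its annotation release and its treatment of multi-mapping reads, the method is not given in the sources used here. The deposited tables hold whole-number counts of reads per transcript, not normalized, which summed to the mapped reads stated in each file. Read lengths per transcript, deposited beside them as a signal in bases, were used as means weighted by reads.

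Counts were summed to genes and named by gene ID. edgeR 4.0.16 in R 4.3.3 was used with filterByExpr (minimum count 10, by title group), TMM scaling and the robust quasi-likelihood test, with Benjamini-Hochberg adjustment over all 6759 tested genes at 0.05. Title and sex were fitted together. Differences within each sex came from a fit of 4 groups of sex and title. DESeq2 1.42.0 was an alternative. In simulated counts for O-titled against Y-titled over 6759 genes, 79% of genes changed 2-fold and 100% of those changed 4-fold were recovered, with 5 false calls. Standard errors are the fitted fold divided by the square root of F. Microtubule genes under the filter with at least 10 reads were compared by an exact permutation test on log2(CPM + 0.5).

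The members and gene lists were chosen with earlier results of these data known. Named were all members, list genes called for title or sex, the 3 most abundant tested genes of each microtubule list and the 10 genes most like the members, leaving out predicted genes and pseudogenes. Alternatives were other scalings, tests and filters, a replicate block, and each library left out in turn. Sequences were read from GENCODE transcripts and RefSeq promoters on mm10. A few items are not reported here.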

Additional observations from a re-analysis of the deposited data

Results flagged for a closer look

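Tuba1c took opposite orders in the sexes. Both O-titled males (109 and 117 CPM) lay above both Y-titled males (103 and 89.1 CPM), and both O-titled females (70.3 and 102 CPM) lay below both Y-titled females (135 CPM each). The female minus the male log2 fold was -0.85 (SE 0.266), and the difference was not tested because the family was chosen on these values. Of all tested genes 3.15% showed this pattern without overlap.

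Tubb2b in O-titled replicate 1, at 0.384 CPM, stood apart from the other O-titled libraries at 0. This is 1 read in the deepest library, under the floor of 3 reads. It was the only value set apart among 32 groups of 4 libraries checked, where chance sets about 5% apart.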

How the results depend on the processing

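Within females the log2 folds of Tubb2a, Tubb4b, Tuba4a, Tubb5, Tuba1c and Tuba1b kept their sign in all 11 alternatives, with Tubb2a between -3.04 and -2.91. These were other scalings, the most abundant transcript only and single libraries left out. The female values of these genes did not overlap, so leaving out 1 library could hardly turn a sign. Nothing is concluded from the kept signs. Each member has 1 listed transcript, so counting only the most abundant one left its reads unchanged. The summed log2 ratio of O-titled over Y-titled was -1.14 in females and -0.15 in males. It moved to -1.03 and -0.0782 with CPM of all mapped reads, and ran from -1.18 to -1.10 in females and from -0.22 to -0.0864 in males without single libraries. Genes called O-titled over Y-titled numbered 271, 600 without the filter and 154 to 294 without single libraries (154 without Y-titled replicate 4, 176 without Y-titled replicate 3). With CPM of all mapped reads the split of 141 higher and 130 lower became 235 and 100. Within females 370 genes were called, 184 in DESeq2 and 133 to 371 without single libraries (133 without Y-titled replicate 3, 198 without Y-titled replicate 4). Within males 85 were called, 54 in DESeq2, 211 without the filter and 31 to 127 without single libraries. The male count was 31 without O-titled replicate 1, 54 without Y-titled replicate 1 and 35 without Y-titled replicate 2. Females over males gave 200 genes, 401 without the filter and 125 to 217 without single libraries (125 without O-titled replicate 2, 127 without Y-titled replicate 1). The cause of these moves was not tested.

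Among microtubule genes, leaving out the filter called 1 gene for title (Ttl) and 1 for sex (Stmn1), against 0 with it, and single libraries left out gave 0 for every such count and for the members by sex. Log2 folds of females over males, none of them called, changed sign for Tubb2a (-0.0270 in DESeq2, and -0.21 to 0.44 without single libraries), Tuba1c (-0.0670 to 0.21), Tuba1b (-0.0404 to 0.26) and Tubb4b (-0.36 to 0.00441). Replicate numbers were not taken to pair the animals. Deviations of same-numbered libraries from the means of their sex and title correlated at -0.0649 in males and -0.0275 in females. With 2 libraries per sex and title, the deviations within a group mirror each other, so these values cannot exclude pairing. With the replicate block edgeR called 184 genes and 0 microtubule genes, and Fcgr2b lost its call (adjusted p = 0.0790). The comparison of transcript shares within members was not run, as each has 1 transcript. The smallest change detectable within 1 sex was not tested.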

Other observations

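Ttl, the ligase that puts the final tyrosine back on alpha-tubulin, was under the count filter and was looked at after its values were seen. It had 15, 9, 10 and 6 reads in the O-titled and 3, 1, 2 and 1 in the Y-titled libraries, or 7.68 ± 3.48 and 1.65 ± 0.506 CPM (SD, n = 4 each). All O-titled livers lay above all Y-titled livers. An exact two-sided permutation test over the 70 assignments gave p = 0.0286, the smallest this design allows, and adjusted p = 0.386 over the 45 microtubule genes under the filter with at least 10 reads. Without the filter edgeR gave a log2 fold of 2.01 (adjusted p = 0.0162). Klc2, a kinesin light chain, also reached this smallest exact p, with 10 reads in the O-titled against 19 in the Y-titled set.

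Stmn1, which binds free tubulin dimers, had 6, 2, 20 and 26 reads in Y-titled replicates 1 to 4 and 18, 7, 11 and 10 in the O-titled ones. Y-titled females stood at 18.4 and 23.3 CPM and the other 6 libraries at 3.78 to 9.55 CPM. Its exact permutation p for title was 0.714 over both sexes (adjusted p = 0.846). With only the most abundant transcript of each gene counted, edgeR called it within females (log2 fold -1.32, adjusted p = 0.0490), and without the filter it called it between the sexes (1.12, adjusted p = 0.0425). It was singled out after its values were seen.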
